A study of Mus musculus with 16 samples.

Results

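A set of 9 genes of muscle protein breakdown was followed across the microarrays of cultured mouse myoblasts, namely the ubiquitin ligase genes Fbxo32, Trim63 and Fbxo30, the transcription factor genes Foxo1 and Foxo3, the autophagosome genes Gabarapl1 and Map1lc3b, the autophagy receptor gene Sqstm1 and the lysosomal protease gene Ctsl. They were taken by name, as the probes whose gene name in the scanner files was 1 of these 9 symbols. Earlier results of these data were known when the genes were chosen. The 9 genes were 9 of the 34836 gene names on the array, and all 9 were among the 20317 genes bright enough to be tested. They were read by 14 probes, of which 13 were tested, and 5 of the genes had 2 probes each.

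The study cultured muscle stem cells and their progeny from male C57Bl/6J mice, aged 11 to 13 weeks by the labels (a slightly narrower range in the study's methods), either released from muscle and grown as dispersed myoblasts or left on isolated single myofibers and stripped from them before RNA extraction. Each culture was sampled 48 and 72 hr after isolation, which gave 4 groups of 4 one-color arrays: dispersed 48 hr, dispersed 72 hr, myofiber-associated 48 hr and myofiber-associated 72 hr. The design asked how each culture changed between the time points and how the cultures differed at each. No group carried a transgene, an induced mutation or a drug. A dispersed replicate came from 1 mouse and a myofiber-associated replicate from 2 mice, each replicate being a separate preparation except myofiber-associated 48 hr replicate 10, which pooled 2 preparations. The myofiber-associated cells were taken off the fibers with trypsin (0.5% by the labels, a lower concentration in the study's methods) and joined with the cells of the washes, and the stripped fibers were discarded. The labels name every sample's source as myofibers, so each sample was placed by its stated growth type, dispersed or on fibers.

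In skeletal muscle, most contractile protein is degraded by the ubiquitin-proteasome system and by autophagy. Fbxo32 (atrogin-1) and Trim63 (MuRF1) encode ubiquitin ligases known for their induction in wasting muscle, and FoxO transcription factors, held in the cytoplasm by Akt, are known to drive both genes together with several autophagy genes. In autophagy, lipid-bound proteins of the ATG8 family, such as those encoded by Gabarapl1 and Map1lc3b, coat the autophagosome, receptors such as p62, encoded by Sqstm1, bring in ubiquitinated cargo, and cathepsins such as that of Ctsl digest it in the lysosome.

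Every array was a one-color array with the same 55681 distinct probes in 59305 gene spots. By the scanner software 55.2% to 64.3% of these spots were well above background, and none was saturated. The 8 myofiber-associated arrays lay on 1 slide with 1 scan and the 8 dispersed arrays on another, so culture cannot be told apart from slide or scan, whereas both times of a culture shared a slide. Levels are given as normalized log2 signal per array, where 1 unit is a doubling of signal, and levels of different probes are not comparable with each other. A gene was called where the adjusted p of limma's moderated test, corrected by Benjamini-Hochberg over the 20317 genes, was under 0.01. In these bulk samples, fewer cells of a type and less RNA per cell cannot be told apart.

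Markers of the cells were examined first, since the myofiber-associated cells had been in contact with adult fibers that hold the same genes. All 11 myoblast markers were well above background on every array of every group. A list of 26 adult fiber markers (contractile proteins and enzymes of mature fibers) was also well above background on all 8 myofiber-associated arrays, and 25 and 23 of them were so on every dispersed array at 48 and 72 hr. Their summed log2 signal was 21.37 to 21.86 in the myofiber-associated 48 hr group and 16.78 to 17.32 in the dispersed 48 hr group. At 72 hr it was 16.64 to 16.87 in the dispersed group and 19.86, 21.09, 19.42 and 21.33 in myofiber-associated replicates 1 to 4, which were thus the most uneven group, with replicates 2 and 4 high. Of the 26 markers, 24 were higher in the myofiber-associated group at 48 hr (median log2 difference 5.86) and 20 at 72 hr (median 4.97). Of the 11 myoblast markers, 1 was higher and 3 lower at 48 hr (median -0.43), and 5 were higher at 72 hr (median 0.49). Of 12 early differentiation markers, 8 were higher and 2 lower at 48 hr (median 3.67), and 7 higher and 1 lower at 72 hr (median 2.28). Over all genes tested, 16.1% were called higher and 27% lower at 48 hr, and 11.5% and 15.6% at 72 hr. The labels and the study's methods state that quality control of these preparations detected no RNA from the fibers. The fiber marker sums are set beside the members' values below, and their part in those values was not tested.

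Markers of other cells were read in the same comparisons. Of 9 endothelial markers, 8 were lower in the myofiber-associated group at 48 hr (median -2.79) and 8 at 72 hr (median -2.63), and 8 fell in dispersed myoblasts (median -1.45) and 6 in myofiber-associated myoblasts (median -1.57) between the times, with all 9 well above background on every array. Of 5 Schwann cell markers tested, 4 were lower in the myofiber-associated group at 48 hr (median -2.41) and 3 at 72 hr, and 4 fell in dispersed myoblasts. Of 8 fibroblast markers tested, 2 were lower at 48 hr, near the share of all genes, and 5 were lower and 2 higher at 72 hr. Over all genes tested, 27% were called lower in the myofiber-associated group at 48 hr and 15.6% at 72 hr, where 11.5% were called higher. Between the times 7.38% rose and 6.32% fell in dispersed myoblasts, and 3.74% rose and 1.74% fell in myofiber-associated myoblasts. Their part in the members' values was not tested either.

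The sequences that identify the measurements the results turn on are given by the first 30 of each probe's 60 bases, with positions on the mm9 build as the scanner files give them. Trim63 and Sqstm1 are shown because each had a pair of probes that bear on how its large difference between cultures is read. The 2 Trim63 probes lay on the plus strand of chromosome 4, the brighter at chr4:133885025-133885084 and the other at chr4:133881557-133881616, 3468 bases apart from start to start. The 2 Sqstm1 probes lay on the minus strand of chromosome 11, the brighter at chr11:50015985-50016044 and the other at chr11:50012868-50012927, 3117 bases apart. Whether a probe falls in coding sequence or in an untranslated region was not read here, since no annotation of that build was used.
Trim63, brighter probe: ccaaaacgtcacaggacacttttctacgtt
Trim63, other probe: atggactactttactctggacttagaacac
Sqstm1, brighter probe: tgtcttcaaaagaagtggacccatctacag
Sqstm1, other probe: accccgttaccctgacctgataaatcccat

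The promoter of Trim63 is shown because its gene had the largest difference of the array and because FoxO factors and the glucocorticoid receptor are known regulators of it. RefSeq promoter windows (GRCm38.p6, 250 bases before to 50 after the start) were matched for 8 of the 9 genes, all but Fbxo32. Letters known as binding motifs were searched on both strands, each given here with the share of the table's 32851 promoters that hold it. The motif bound by FoxO factors was taken as GTAAACA, held by 3.65% of promoters, and its shorter core, which lies within it, was held by 7.89%. One arm of the glucocorticoid response element was taken as TGTTCT, held by 19% of promoters. The full element with both arms, taken as AGAACA, any 3 bases and TGTTCT, was found in 3 promoters of the table. The motif bound by the lysosomal regulator TFEB was taken as TCACGTGA, held by 0.974%. Of the E-boxes bound by myogenic factors, the first was CAGCTG, held by 16.3% of promoters, and the second, searched likewise, was CACCTG, held by 20.2%. The 250 bases before the start of Trim63, chr4:134314870-134315119 on the plus strand, are printed with the matches in capitals, first the glucocorticoid arm with the FoxO motif right after it (the latter on the other strand, so that its reverse complement is printed), then the first E-box.
Trim63, 250 bases before the start: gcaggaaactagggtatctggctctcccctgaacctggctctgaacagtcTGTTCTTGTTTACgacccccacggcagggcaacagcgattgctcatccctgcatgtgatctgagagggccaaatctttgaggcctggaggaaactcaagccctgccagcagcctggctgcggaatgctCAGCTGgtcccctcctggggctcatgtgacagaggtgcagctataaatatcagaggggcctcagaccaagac
The glucocorticoid arm began 200 bases before the start and the FoxO motif 194 bases before it, so that they stood directly side by side, and the E-box began 72 bases before it. The letters TGAACA preceded the glucocorticoid arm, separated from it by 3 bases. They differ from AGAACA in the first letter alone, so the exact search did not count the full element in Trim63. Of the 8 promoters, that of Trim63 alone held the FoxO motif or the glucocorticoid arm, and none held the TFEB motif. Map1lc3b held both E-boxes and Sqstm1 the first, and in the other 5 promoters none of these letters stood within the window. A match of letters is a description of the sequence and does not show binding.

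Of the ligase genes best known from atrophying muscle, Trim63 was far lower in dispersed than in myofiber-associated myoblasts. Its brighter probe was well above background on all 4 dispersed arrays at 48 hr, on 2 of 4 at 72 hr and on every myofiber-associated array. Fbxo32 was measurable in every sample and rose in the dispersed myoblasts between 48 and 72 hr. Fbxo30 (MUSA1), a ligase gene known from denervated muscle, rose slightly in the dispersed culture and differed little between cultures.

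**Figure D1:**
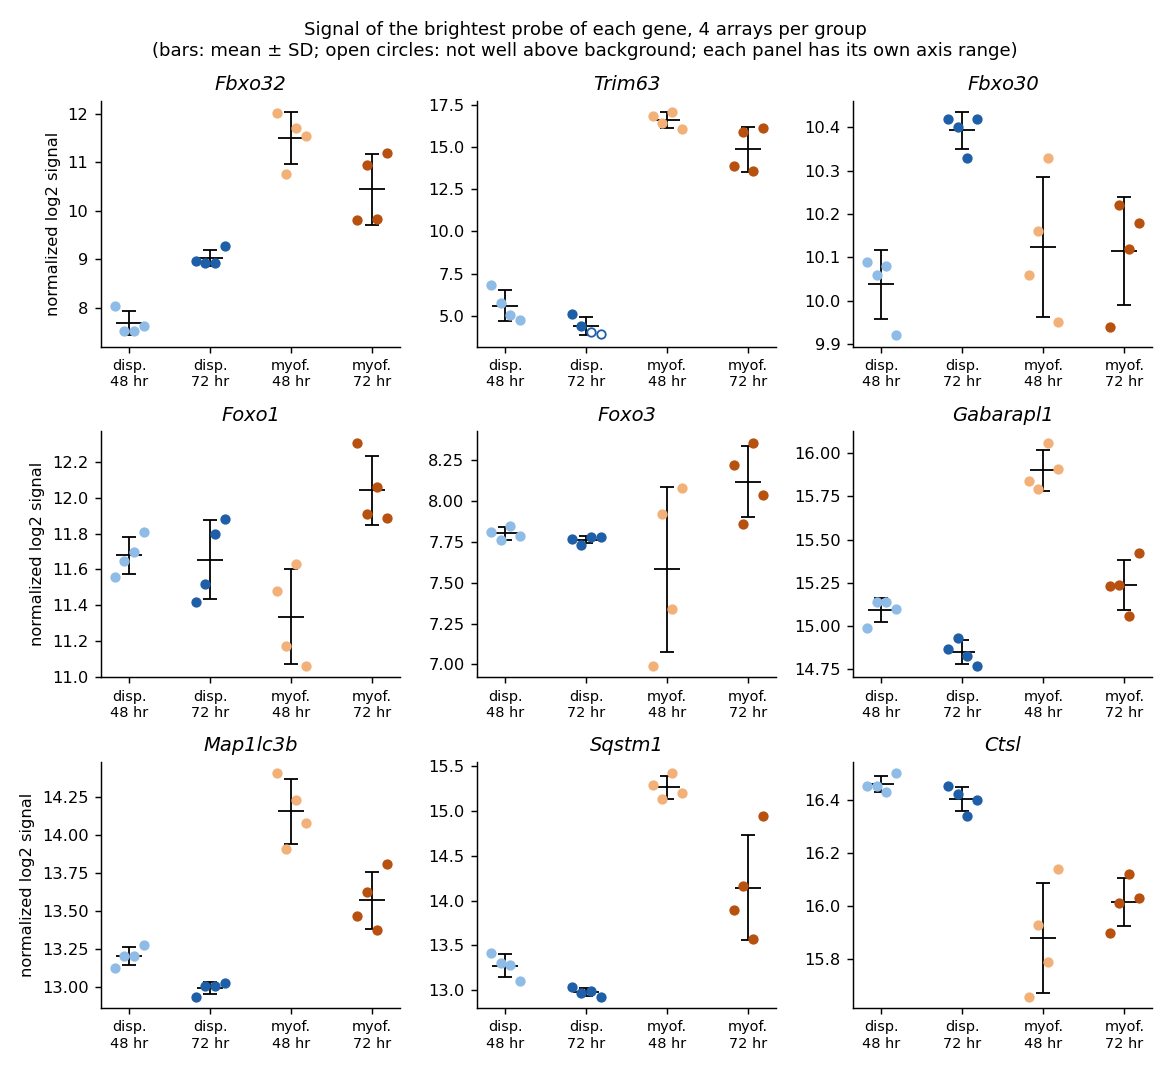
Normalized log2 signal of the brighter probe of each of the 9 genes on each of the 16 arrays (points) with the group mean and SD (bars), open circles being not well above background, in 4 groups of culture and time, with the axis range set per gene. Trim63 lay between 3.94 and 6.85 on the dispersed arrays and between 13.55 and 17.07 on the myofiber-associated arrays.

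The log2 signal of Trim63 in dispersed myoblasts was 6.85, 5.76, 5.05 and 4.74 at 48 hr (5.60 ± 0.94, SD, n = 4) and 5.12, 4.39, 4.03 and 3.94 at 72 hr (4.37 ± 0.54), the last 2 not well above background. In myofiber-associated myoblasts it was 16.83, 16.44, 17.07 and 16.04 at 48 hr (16.60 ± 0.45) and 13.85, 15.90, 13.55 and 16.12 at 72 hr (14.85 ± 1.34). The cultures did not overlap at either time, while the 2 times overlapped within each culture. The difference between cultures was 11.00 log2 at 48 hr (SE 0.45, 2044-fold, adjusted p = 1.53e-06, limma) and 10.48 at 72 hr (SE 0.62, 1432-fold, adjusted p = 1.92e-05, limma). It ranked 1 from the highest of the 20317 genes at both times, and it kept that rank under every alternative processing and with any 1 array left out.

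With each dispersed 72 hr array raised to its limit of detection where the probe was not well above background, the difference at 72 hr was 10.41. The other Trim63 probe was well above background on 1 of the 4 dispersed arrays at 48 hr, and with the others raised to their limit the difference there was 10.81, or 1796-fold (measured 11.06, adjusted p = 7.83e-07, limma). At 72 hr that probe was well above background on no dispersed array, at measured means of 13.18 and 2.65, and the myofiber-associated group was at least 602-fold higher (adjusted p = 2.82e-05, limma). This bound is the mean of the myofiber-associated arrays against, per dispersed array, the lowest signal among probes well above background or the probe's own, whichever was higher. Between 48 and 72 hr the brighter probe moved by -1.23 in the dispersed culture (adjusted p = 0.0912) and by -1.74 in the myofiber-associated one (adjusted p = 0.0677), neither of which passed the threshold. The dispersed change passed it in the deposited table of ratios alone (adjusted p = 0.00679, limma), which leaves out the spread of the 48 hr arrays. Among the myofiber-associated 72 hr arrays, replicates 2 and 4 were high both for Trim63 and for the summed adult fiber markers.

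Fbxo32, read by 1 probe printed in 10 spots at chr15:58011752-58011811 on the minus strand, had log2 signals of 8.04, 7.52, 7.52 and 7.61 in dispersed myoblasts at 48 hr (7.67 ± 0.25, SD, n = 4) and 8.96, 8.93, 8.93 and 9.27 at 72 hr (9.02 ± 0.16). In myofiber-associated myoblasts the signals were 12.01, 10.75, 11.71 and 11.54 at 48 hr (11.50 ± 0.54) and 9.80, 10.94, 9.83 and 11.19 at 72 hr (10.44 ± 0.73). The dispersed groups did not overlap, the myofiber-associated groups did, and every myofiber-associated array was above every dispersed array. In dispersed myoblasts Fbxo32 thus rose by 1.35 log2 (SE 0.13, 2.55-fold, adjusted p = 0.000322, limma), the 123rd highest change of the 20317 genes. Over the same interval 11 of the 26 adult fiber markers fell and 3 rose, Tnnt1 (2.34), Tnni1 (2.27) and Ryr1 (1.17), with a median of -1.45. Of 12 early differentiation markers 5 rose and 2 fell, with Myog (myogenin) at 3.92, Gm7325 (now Mymx, a fusion gene) at 3.49, the embryonic myosin gene Myh3 at 3.36 and Myh8 at -2.22, and the part of either list in the rise of Fbxo32 was not tested. The rise was called without each dispersed array in turn, and it missed the threshold only when all 16 arrays shared 1 fit (adjusted p = 0.0125). In the myofiber-associated groups Fbxo32 moved by -1.06 (SE 0.39, adjusted p = 0.0785, limma), which did not pass the threshold, and its replicates 2 and 4 at 72 hr were again the high ones.

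The changes of Fbxo32 in the 2 cultures differed by 2.41 log2, dispersed minus myofiber-associated (SE 0.44, adjusted p = 0.00456, limma interaction term). That call was close to the threshold. It was lost with no filter on low signal (adjusted p = 0.0103), without myofiber-associated 48 hr replicates 7 (0.0113) or 9 (0.0112), without dispersed 72 hr replicates 5 (0.011), 6 (0.0108) or 7 (0.0108), and without dispersed 48 hr replicates 2 (0.0111), 3 (0.0114) or 4 (0.0124), with values of 2.20 to 2.66 throughout. The interaction was called for 3.45% of the genes tested, 1.09% in this direction and 2.36% in the other, and Fbxo32 was the only member called. Between cultures, Fbxo32 was 3.83 higher in the myofiber-associated group at 48 hr (SE 0.26, 14.2-fold, adjusted p = 1.29e-05, limma) and 1.42 higher at 72 hr (SE 0.33, 2.67-fold, adjusted p = 0.00896, limma). The call at 72 hr was lost with no filter (adjusted p = 0.0201), with the slide row as a block (0.0154), without myofiber-associated 72 hr replicates 2 (0.0246) or 4 (0.0154) and without dispersed 72 hr replicates 5 (0.0258), 6 (0.027), 7 (0.0266) or 8 (0.0162).

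**Figure D2:**
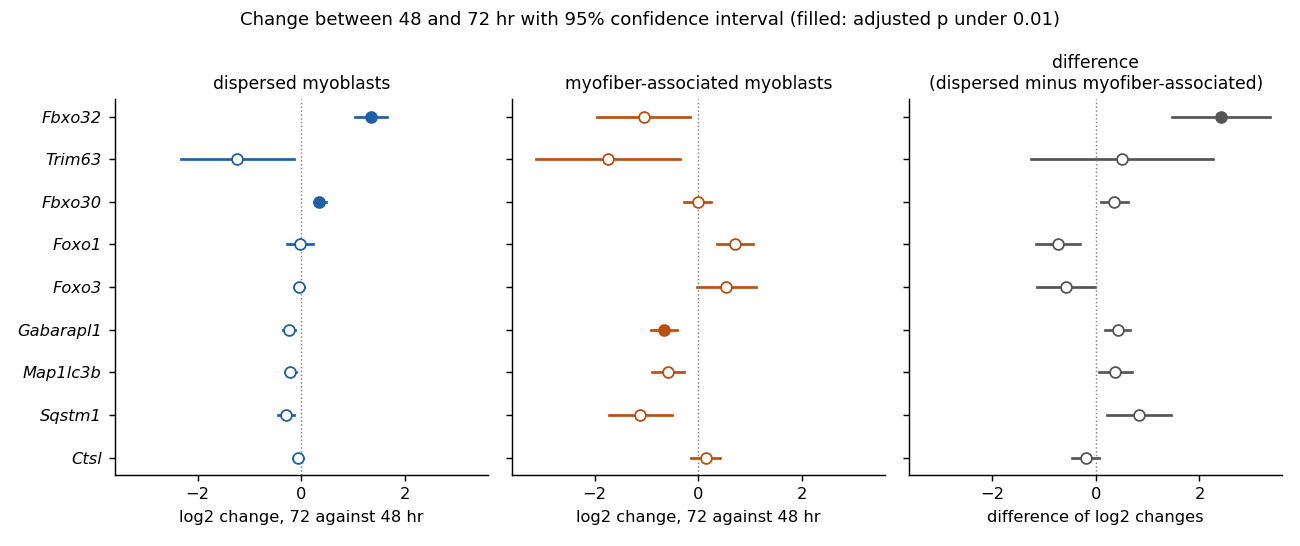
Log2 change from 48 to 72 hr of each gene in dispersed myoblasts (left) and myofiber-associated myoblasts (middle), and the difference of these changes (right), as points with 95% confidence intervals from limma. Filled points had an adjusted p under 0.01, which were Fbxo32 (1.35) and Fbxo30 (0.35) on the left, Gabarapl1 (-0.66) in the middle and Fbxo32 (2.41) on the right.

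Fbxo30 had log2 signals of 10.09, 10.06, 10.08 and 9.92 in dispersed myoblasts at 48 hr and 10.42, 10.40, 10.33 and 10.42 at 72 hr, so the groups were separate and tight. The rise was 0.35 (SE 0.05, 1.28-fold, adjusted p = 0.00195, limma), and its other probe rose by 0.30 (adjusted p = 0.0054, limma). Fitting all 16 arrays together took the call away (adjusted p = 0.0152). In myofiber-associated myoblasts Fbxo30 was 10.12 ± 0.16 at 48 hr and 10.11 ± 0.12 at 72 hr (SD, n = 4), a change of -0.01 with a 95% confidence interval from -0.27 to 0.25. No difference between cultures was called, with 0.09 at 48 hr and -0.28 at 72 hr, where the other probe gave 0.30 and where scaling to the 75th percentile alone made the brighter probe a call (-0.33, adjusted p = 0.00847).

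Fbxo32 and Fbxo30 were the 2 of the 9 members called higher at 72 hr in dispersed myoblasts, and none was called lower, where 13.7% of the genes tested were called, 7.38% higher and 6.32% lower. In 5 of the 9 genes the dispersed time groups did not overlap, against 31.2% of the genes tested. In myofiber-associated myoblasts 1 of the 9 was called, Gabarapl1, which was lower, where 5.48% of the genes tested were called, 3.74% higher and 1.74% lower. There 4 of the 9 did not overlap, against 26.3% of the genes tested. The median change of the 9 was -0.06 in dispersed and -0.58 in myofiber-associated myoblasts, against 0.02 and 0.06 over the genes tested. The time comparisons, the interaction and the comparisons of cultures use the same 4 groups and are not independent of each other.

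The wider list of 18 muscle ubiquitin ligases, which holds Fbxo32, Trim63 and Fbxo30, moved in both directions between cultures. At 48 hr, 7 of the 18 were higher and 6 lower in the myofiber-associated group, where 16.1% of all genes tested were called higher and 27% lower, with a median of 0.10 against -0.12 over the genes tested. At 72 hr these shares of all genes were 11.5% and 15.6%, and the counts of each list below are read against them. The highest after Trim63 were Trim54 (MuRF3, a close relative of Trim63) at 8.41, Fbxo40 (a muscle F-box protein) at 8.09 and Asb2 at 6.24. At 72 hr, 5 were higher, among them Fbxo40 at 6.55 and Trim54 at 5.51, and 4 were lower. Between 48 and 72 hr, 3 were called in dispersed myoblasts, Fbxo32, Fbxo30 and Skp2 (0.31), the F-box subunit that targets the cell-cycle inhibitor p27. In myofiber-associated myoblasts the call was Skp2 alone, at 1.18.

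The general ubiquitin machinery that the ligases work with was described next. Of 17 genes of the SCF core and E2 enzymes, 5 were higher and 1 lower in the myofiber-associated group at 48 hr (median 0.25), with Ube2b at 1.29 and Ube2g1 at 0.79, and 3 were higher at 72 hr. Of 31 subunits of the proteasome, 3 were higher at 48 hr, namely Psmd11 (1.18), Psmd8 (0.78) and Psmd4 (0.65), with a list median of 0.13. In either direction 43.2% of all genes tested were called at that time. At 72 hr Psmd14, the deubiquitinase of the proteasome lid, was called lower at -0.33. No proteasome gene was called between the times in either culture by limma, where 4 of the 31 in each had an unadjusted p under 0.05.

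Foxo1 and Foxo3 were not called by limma in any of the 5 comparisons, although 6 of the 10 tests had an unadjusted p under 0.05. In the deposited table of ratios the difference of their changes between cultures was called (adjusted p = 0.00811 for Foxo1 and 0.00667 for Foxo3, limma). That table leaves out the spread of the 48 hr arrays, and the scanner values gave an adjusted p of 0.0264 and 0.134 (limma). Foxo1 had log2 signals of 11.56, 11.65, 11.70 and 11.81 in dispersed myoblasts at 48 hr and 11.42, 11.52, 11.80 and 11.88 at 72 hr. In myofiber-associated myoblasts it had 11.48, 11.17, 11.63 and 11.06 at 48 hr and 12.31, 11.91, 12.06 and 11.89 at 72 hr. The dispersed groups overlapped, while the myofiber-associated groups did not. The myofiber-associated change was 0.71 (SE 0.16, 95% confidence interval 0.35 to 1.06, adjusted p = 0.0182, limma), and the other probe gave 0.56 (adjusted p = 0.0274), neither past the threshold. The brighter probe passed it in 1 fit of all 16 arrays and in the deposited table (adjusted p down to 0.00129). In dispersed myoblasts the change was -0.02 (95% confidence interval -0.28 to 0.23), and its sign differed with the probe. Between cultures Foxo1 differed by -0.34 at 48 hr (adjusted p = 0.0525) and by 0.39 at 72 hr (adjusted p = 0.0472), where the other probe gave -0.12.

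Foxo3 was read by 2 probes on the minus strand of chromosome 10, 61678 bases apart. The tested probe, at chr10:41967288-41967347, is listed under a full-length cDNA and ranged in the dispersed culture from 7.76 to 7.85 at 48 hr and from 7.73 to 7.78 at 72 hr. On the myofiber-associated arrays it gave 6.99, 7.92, 7.34 and 8.08 at 48 hr and 8.22, 7.86, 8.36 and 8.04 at 72 hr, and all these groups overlapped apart from the 2 cultures at 72 hr. The difference there was 0.36 (SE 0.11, adjusted p = 0.0265, limma; 0.00766 without myofiber-associated 72 hr replicate 2) and the change in the myofiber-associated culture 0.54 (SE 0.24, adjusted p = 0.132, limma). The probe listed under the RefSeq transcript, at chr10:41905610-41905669, lay between 4.39 and 5.42 on all arrays and was too dim to be tested, so the statements on Foxo3 rest on 1 probe.

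Foxo6, a FoxO gene with little shuttling out of the nucleus, was called higher in the myofiber-associated group, by 2.09 at 48 hr and 1.69 at 72 hr, and Foxo4 was not called in any comparison. Genes known as FoxO targets outside the 9 were described as a group. Of the 17 tested, 10 were higher and 1 lower in the myofiber-associated group at 48 hr (median 0.57 against -0.12 over the genes tested). Gadd45a, a stress gene also known from denervated muscle, was at 4.91, and Pdk4, the kinase that turns pyruvate dehydrogenase off, at 3.17. Bcl6 was at 1.52 and the catalase gene Cat at 0.97.
At 72 hr 5 were higher and none lower, with Gadd45a at 3.03, Pdk4 at 1.70 and Trib1 at 0.97. Between the times, dispersed myoblasts had Ccng2 higher (0.55) and Txnip (-0.83) and Trib1 (-0.30) lower, and myofiber-associated myoblasts had Sesn3 higher (1.13). The adult fiber markers moved with culture over the same groups, and their part in these differences was not tested.

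The Trim63 promoter held an arm of the glucocorticoid response element and all but the first letter of the other arm. For that reason 10 genes of the glucocorticoid receptor and its targets were described as well. At 48 hr 5 were higher and 2 lower in the myofiber-associated group (median 0.92), with Tsc22d3 (GILZ) at 4.45, Zbtb16 at 4.40, the MAP kinase phosphatase gene Dusp1 at 2.45 and Klf9 at 2.15. The 2 lower were Errfi1 (-0.65) and Fkbp5 (-0.49). At 72 hr 6 were higher and 1 lower (median 0.87), with Zbtb16 at 3.89, Tsc22d3 at 2.25 and Errfi1 the lower one at -0.62. The receptor gene Nr3c1 itself was not called, at 0.33 and -0.15. In dispersed myoblasts Zbtb16 (-1.61), Klf9 (-0.85) and Sgk1 (-0.68) fell between 48 and 72 hr, while Fbxo32 rose. In the myofiber-associated culture none of the 10 was called by limma, and 6 had an unadjusted p under 0.05.

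Gabarapl1, Map1lc3b and Sqstm1, which act at the autophagosome, shared one order of groups, with the myofiber-associated 48 hr group highest and the dispersed 72 hr group lowest. Gabarapl1, read at chr6:129492254-129492313 on the plus strand, had 14.99, 15.14, 15.14 and 15.10 in dispersed myoblasts at 48 hr and 14.87, 14.93, 14.83 and 14.77 at 72 hr. In myofiber-associated myoblasts it had 15.84, 15.79, 16.06 and 15.91 at 48 hr and 15.23, 15.24, 15.06 and 15.42 at 72 hr. No pair of groups compared overlapped. In the myofiber-associated culture it fell by 0.66 on the log2 scale (SE 0.11, 1.58-fold lower, adjusted p = 0.00629, limma).

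This was the single member called between the times in that culture, and the call rested on single arrays and settings. It was lost with no filter on low signal (adjusted p = 0.0128), with the slide row as a block (0.0124), without myofiber-associated 72 hr replicates 1 (0.0248), 2 (0.0194) or 3 (0.0193) and without 48 hr replicates 7 (0.0222), 8 (0.0146) or 9 (0.0186). In dispersed myoblasts Gabarapl1 moved by -0.24 (adjusted p = 0.0126), and the changes of the 2 cultures differed by 0.42 (adjusted p = 0.0278), both short of the threshold. The first passed it without dispersed 48 hr replicate 1 (0.00843), the second without myofiber-associated 72 hr replicate 4 (0.0076) and in the deposited table (0.00485). Between cultures it was 0.81 higher in the myofiber-associated group at 48 hr (SE 0.08, 1.75-fold, adjusted p = 0.000102, limma) and 0.39 higher at 72 hr (SE 0.09, adjusted p = 0.00784, limma). The call at 72 hr was lost under scaling to the 75th percentile (0.0112), with no filter (0.0148), with the slide row as a block (0.0129) and without any 1 of the 8 arrays (0.0114 to 0.026) except myofiber-associated 72 hr replicate 3.

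Map1lc3b, which encodes LC3B and was read by 1 probe printed in 10 spots at chr8:124121771-124121830, ranged in the dispersed culture from 13.13 to 13.28 at 48 hr and from 12.94 to 13.03 at 72 hr. In myofiber-associated myoblasts it had 14.41, 13.91, 14.23 and 14.08 at 48 hr and 13.47, 13.63, 13.38 and 13.81 at 72 hr. Again no pair of groups compared overlapped. It was 0.95 higher in the myofiber-associated group at 48 hr (SE 0.11, 1.93-fold, adjusted p = 0.000201, limma) and 0.57 higher at 72 hr (SE 0.10, 1.49-fold, adjusted p = 0.00224, limma), and both calls held under every alternative run and with any 1 array left out. The changes between times were -0.21 in dispersed myoblasts (adjusted p = 0.0106) and -0.58 in myofiber-associated myoblasts (adjusted p = 0.0232), both short of the threshold. The dispersed change was called with the slide row as a block, with normexp background correction, as the mean of all probes, in the deposited table (adjusted p down to 0.00853) and without dispersed 48 hr replicate 1 (0.00867). The myofiber-associated change was called in 1 fit of all 16 arrays and in the deposited table (adjusted p down to 0.000648).

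Sqstm1, whose p62 protein is itself degraded by autophagy, had 13.41, 13.30, 13.28 and 13.10 in dispersed myoblasts at 48 hr and 13.04, 12.97, 12.99 and 12.93 at 72 hr. In myofiber-associated myoblasts it had 15.29, 15.13, 15.42 and 15.20 at 48 hr and 13.89, 14.16, 13.57 and 14.94 at 72 hr. The groups were separate in every comparison, and myofiber-associated 72 hr replicate 4 was the highest of its group, as it was for Trim63, Fbxo32 and the adult fiber markers. Sqstm1 was 1.99 higher in the myofiber-associated group at 48 hr (SE 0.10, 3.97-fold, adjusted p = 2.75e-06, limma) and 1.16 higher at 72 hr (SE 0.26, 2.23-fold, adjusted p = 0.00786, limma). The call at 72 hr was lost with no filter (adjusted p = 0.0179), with the slide row as a block (0.0141), without myofiber-associated 72 hr replicates 1 (0.0131) or 2 (0.0214) and without dispersed 72 hr replicates 5 (0.0212), 6 (0.0231), 7 (0.0226) or 8 (0.0204). Between the times it moved by -1.12 in myofiber-associated (adjusted p = 0.0221) and -0.29 in dispersed myoblasts (adjusted p = 0.0163), neither past the threshold. The myofiber-associated change was called without its 72 hr replicate 4 (adjusted p = 0.00252) and in 1 fit of all 16 arrays, and the dispersed change without dispersed 48 hr replicate 4 (0.00491), as the mean of all probes and in the deposited table. The changes of the 2 cultures differed by 0.83 (adjusted p = 0.0626), and by 1.1 without myofiber-associated 72 hr replicate 4 (0.00115).

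The other Sqstm1 probe gave a far larger difference between cultures. It had 5.81, 5.78, 5.56 and 5.93 in dispersed myoblasts at 48 hr and 5.28, 5.47, 5.52 and 5.53 at 72 hr, against 10.69, 10.83, 11.67 and 10.56 and then 10.00, 10.35, 8.71 and 10.64 in myofiber-associated myoblasts. The difference was 5.17 at 48 hr (35.9-fold, adjusted p = 2.11e-06, limma) and 4.47 at 72 hr (22.2-fold, adjusted p = 8.76e-05, limma), so the direction was shared by both probes and the size was not. The dimmer probe is listed under an Ensembl transcript and the brighter under the RefSeq transcript.

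**Figure D3:**
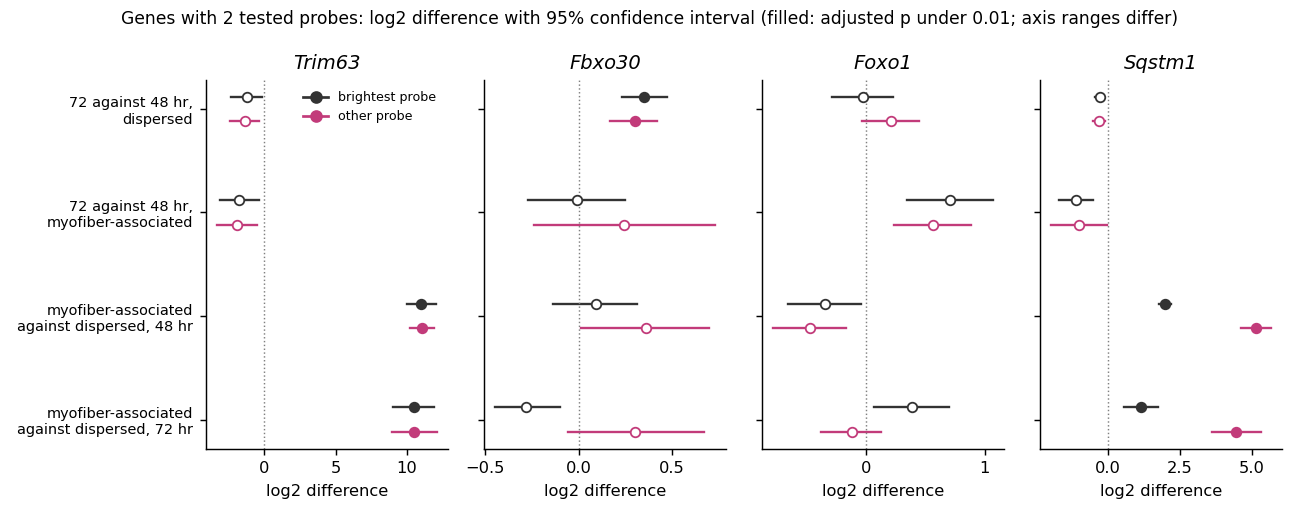
Log2 difference with 95% confidence interval for the genes with 2 tested probes, the brighter probe in black and the other in pink, for the change between times in each culture and the difference between cultures at each time, with filled points at an adjusted p under 0.01 and axis ranges that differ. At 48 hr the Sqstm1 probes gave 1.99 and 5.17 and the Trim63 probes 11.00 and 11.06, the latter measured against dispersed arrays of which 1 of 4 was well above background (10.81 with the limit of detection).

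The autophagy lists were described with their members among the 9 included. Of the 5 ATG8 family genes tested, which hold Gabarapl1 and Map1lc3b, 4 were higher in the myofiber-associated group at 48 hr (median 0.95), with Map1lc3a (LC3A) at 2.05 and Gabarapl2 at 1.08, and 3 at 72 hr, with Map1lc3a at 1.05, while Gabarap was not called. Of the 10 autophagy receptors, which hold Sqstm1, 8 were higher at 48 hr (median 0.71) and 4 at 72 hr (median 0.39), and none was lower. Fam134b (now Retreg1), the receptor for turnover of the endoplasmic reticulum, was at 3.54 and 1.58, and Optn at 2.15 and 1.19, and Bnip3, a mitophagy receptor, was at 1.09 at 48 hr.

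Fam134b was also called in both time comparisons and in their difference. It rose by 0.79 in dispersed myoblasts (adjusted p = 0.000361, limma), fell by 1.18 in myofiber-associated myoblasts (adjusted p = 0.00881, limma), and these changes differed by 1.97 (SE 0.24, adjusted p = 0.000482, limma). Its changes were thus of the same signs as those of Fbxo32. Of the 26 genes of autophagy initiation and conjugation tested, 10 were higher and 1 lower at 48 hr (median 0.28), with Wipi1 at 1.20, Atg13 at 1.18 and Rb1cc1 (FIP200) at 0.84, and 3 were higher and 1 lower at 72 hr. Between the times Rb1cc1 (0.28) and Vmp1 (0.25) rose and Atg7 (-0.27) fell in dispersed myoblasts, and none was called by limma in the myofiber-associated culture, where 6 had an unadjusted p under 0.05.

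**Figure D4:**
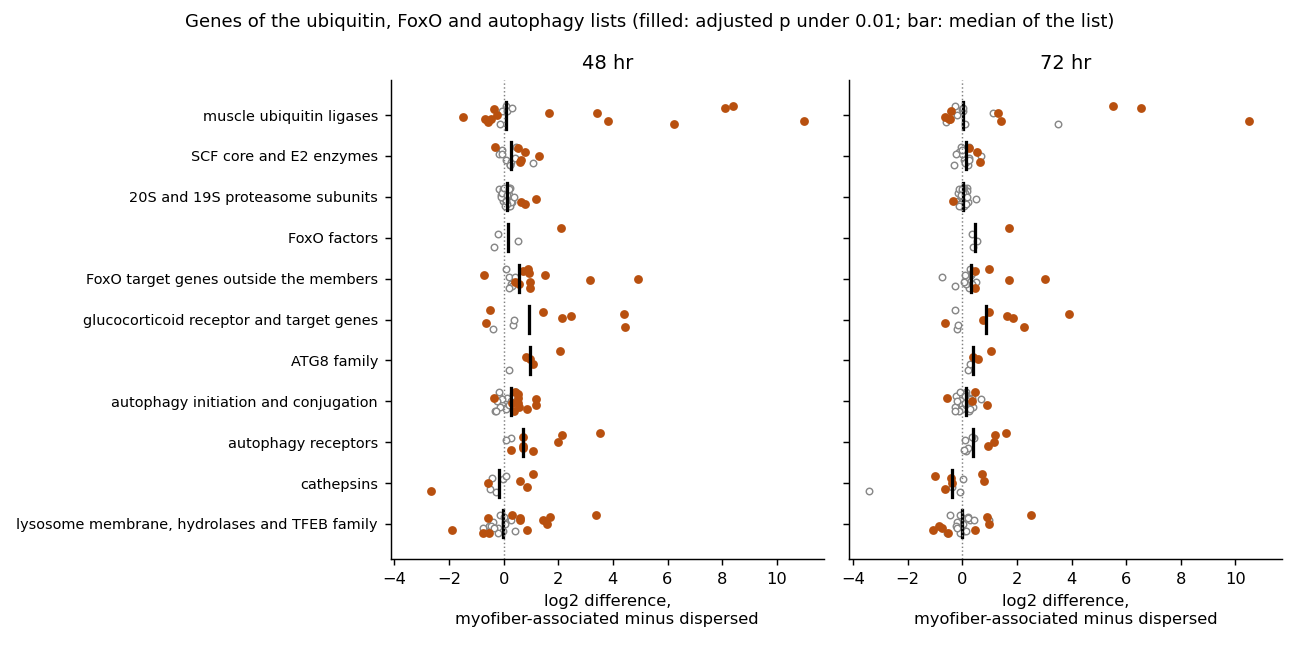
Log2 difference between cultures, myofiber-associated against dispersed, of each tested gene of the lists at 48 and 72 hr (points), with the list median (bar) and the genes called as filled points. The ligase list spans from below 0 to the Trim63 values of 11.00 and 10.48, and all 8 receptors called at 48 hr lie above 0.

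Ctsl, the gene of the lysosomal protease cathepsin L, was the member called in the opposite direction. It had 16.45, 16.45, 16.43 and 16.50 in dispersed myoblasts at 48 hr and 16.45, 16.42, 16.34 and 16.40 at 72 hr. In myofiber-associated myoblasts it had 15.66, 15.93, 15.79 and 16.14 at 48 hr and 15.90, 16.01, 16.12 and 16.03 at 72 hr. Every dispersed array lay above every myofiber-associated array, and within each culture the times overlapped. Ctsl was 0.58 log2 lower in the myofiber-associated group at 48 hr (log2 difference -0.58, SE 0.11, adjusted p = 0.00201, limma) and at 72 hr differed by -0.39 (SE 0.07, adjusted p = 0.00254, limma). The latter call was lost without dispersed 72 hr replicates 5 (adjusted p = 0.0107) or 6 (0.0112).

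Over the 10 cathepsins tested, Ctsl included, 3 were higher and 2 lower in the myofiber-associated group at 48 hr (median -0.16), and 2 were higher and 4 lower at 72 hr (median -0.39). Ctsd, the aspartic protease of the lysosome, was higher at both times (1.09 and 0.72), whereas Ctss, a cathepsin known from macrophages, was at -2.66 at 48 hr and fell by 1.41 in dispersed myoblasts between the times. Among 12 macrophage markers tested, 8 were lower and 1 higher at 48 hr in the myofiber-associated group (median -1.41), and 5 lower and 1 higher at 72 hr, with summed log2 signals of 14.02 to 14.88 over all arrays. Their part in the cathepsin values was not tested. Among 26 lysosome and TFEB family genes, 8 were higher and 4 lower at 48 hr (median -0.02), with Tfeb at 3.39, the glucosidase gene Gaa at 1.71, Mitf at 1.57 and the lipase gene Lipa at -1.91, and at 72 hr 4 were higher and 4 lower, with Tfeb at 2.53 and Lipa at -1.09. In dispersed myoblasts 4 of them fell between the times, Lipa (-0.96), Tfeb (-0.66), Hexa (-0.48) and Scarb2 (-0.20).

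Across the 9 genes, 6 were called between the cultures at each time. At 48 hr 5 were higher and 1 lower in the myofiber-associated group, where 43.2% of the genes tested were called, 16.1% higher and 27% lower, and 6 of the 9 did not overlap, against 56% of the genes tested. At 72 hr 5 were again higher and 1 lower, where 27.1% of the genes tested were called, 11.5% higher and 15.6% lower, and 9 of the 9 did not overlap, against 46.4%. The median difference of the 9 was 0.81 at 48 hr and 0.39 at 72 hr, against -0.12 and -0.02 over the genes tested. The genes called higher were Trim63, Fbxo32, Sqstm1, Map1lc3b and Gabarapl1 at both times, and the gene called lower was Ctsl. All 6 calls at 48 hr held under every alternative run and with any 1 array left out. In 36 exact two-sided permutation tests of the 9 genes over the 4 comparisons of groups, the 24 without overlap reached p = 0.0286, the smallest that 4 arrays against 4 allow, or 0.0429 after Benjamini-Hochberg adjustment.

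**Figure D5:**
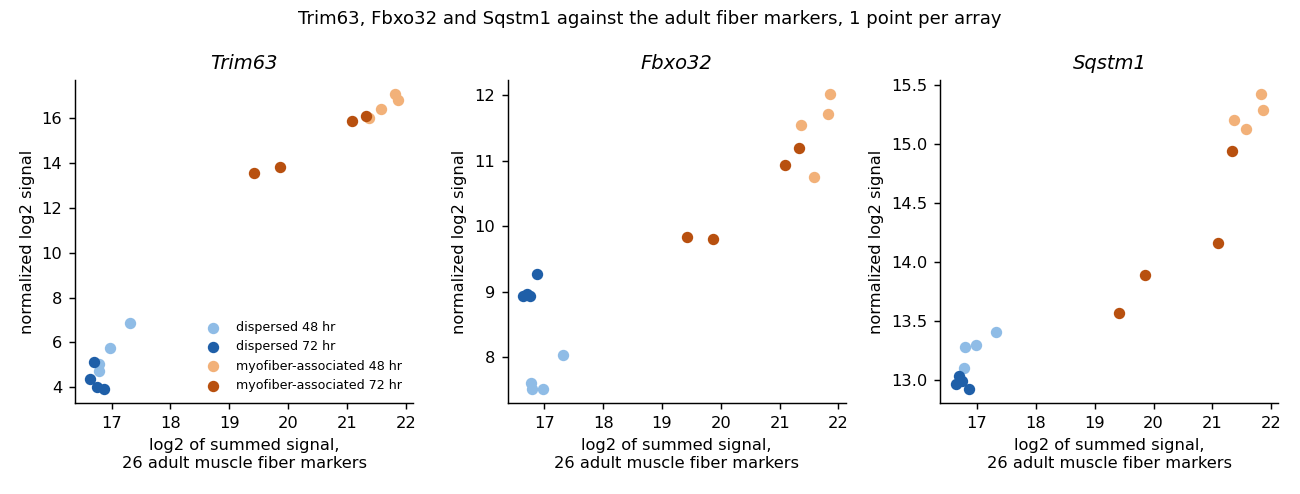
Normalized log2 signal of Trim63, Fbxo32 and Sqstm1 on each of the 16 arrays (vertical axis) against the log2 summed signal of 26 adult fiber markers on the same array (horizontal axis), colored by group. The dispersed arrays lie at fiber marker signals of 16.78 to 17.32 at 48 hr and 16.64 to 16.87 at 72 hr, with Fbxo32 at 7.52 to 8.04 and 8.93 to 9.27, and the myofiber-associated 72 hr arrays spread from 19.42 to 21.33.

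The plot of members against fiber markers sets the cultures far apart on its horizontal axis, so no correlation over the 16 arrays was read as a relation within a culture. The genes whose signal ran most like each member over the 16 arrays, among 12722 compared, are given by Pearson's r as a description that the difference between cultures and slides enters. Trim63 was nearest to Myom2 (an M-band protein of the sarcomere), Nmrk2 and Mylk2 (the myosin light chain kinase of skeletal muscle), each at r = 0.996. Fbxo32 was nearest to Panx1 (0.988), Stbd1 (0.984) and Apobec2 (0.978). Sqstm1 was nearest to Plbd1 (0.991), Tom1 (0.991) and Rab5a (0.989), Map1lc3b to Herpud1 (0.996), Oplah (0.993) and Usp2 (0.991), and Gabarapl1 to Tmco4 (0.976), Camta1 (0.975) and Nrip1 (0.973).
For the members that differed little between cultures the nearest genes were less near. Foxo1 had Rb1 (0.909), Dmp1 (0.895) and Cdh15 (0.885), Foxo3 had Bbc3 (0.912), Mms19 (0.892) and Sppl3 (0.891), and Fbxo30 had Stk4 (0.863), Fam210a (0.847) and Capn2 (0.846). Ctsl, which unlike these was called between cultures at both times, had Tor1a (0.972), Rpl21 (0.965) and Adam15 (0.962).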

How the data were processed

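Total RNA was labelled with Cy3 as cRNA by Agilent's one-color protocol and hybridized to Agilent arrays, and the authors deposited 1 scanner file per array with intensity values per spot. From them the processed signal, already background-subtracted per the file headers, was taken to log2, and control spots and outlier flags were left out. Every array was fitted by loess (span 0.3, 4 iterations) to a reference, the averaged 48 hr signal in that culture, and quantile normalization followed. Spots sharing a probe were averaged after these steps. The brightest probe of a gene was kept where its median log2 signal reached 5. A table that the authors deposited also holds log2-scale ratios for the 72 hr arrays, with the 48 hr average of the same culture as denominator. Its header states neither log base nor centring. Set against the scanner values it had slopes of 1.06 and 1.04 (r = 0.988 and 0.985) in the same direction, with column medians from -0.00231 to 0.0640, and it served as an alternative.

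Groups were compared with limma 3.58.1 in R 4.3.3 (lmFit, eBayes, Benjamini-Hochberg), in place of the SAM test of the study's methods, at an adjusted p under 0.01. Each comparison was fitted on its own groups and the interaction on all 16 arrays. Tested on simulated arrays of 20289 genes with 200 changed, the fit recovered 74% of log2 changes of 1 and 97% of those of 2 in the dispersed time comparison (2.29% of calls false), 42% and 86% in the myofiber-associated one (2.29%), and 57% and 91% between cultures at 48 hr (0%). In the data 2784, 1113 and 8773 genes were called in these comparisons, so the simulated shares need not hold for the reported fits. The p-values rest on the spread between arrays within a group, and 4 arrays a group limit the precision. That spread holds no difference between slides, since the arrays of a culture shared a slide.

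The members and lists were chosen with earlier results of these data known. Named were the 9 members, up to 4 genes per list with the largest change among those called (with further list genes, such as Nr3c1, Foxo4 and Gabarap, named after their values were seen), and for each member the 3 genes with the highest r. Lists are described by counts and medians, with no set test. The alternatives tried were quantiles alone, 75th percentile scaling in place of loess and quantiles, normexp on the raw signals (offset 50), no filter or a filter on detection, the mean of all probes or the other probe, the slide row as a block, 1 fit of all arrays, the deposited table, and each array left out. Python 3.11.15, pandas 2.3.3, numpy 2.4.6, scipy 1.17.1 and matplotlib 3.10.9 were used for summaries, permutation tests and figures. Sequences came from the scanner files and RefSeq.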

Additional observations from a re-analysis of the deposited data

Results flagged for a closer look

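In 56 groups of 4 arrays looked at, over the 14 probes, 4 had an array far from the other 3 by Dixon's criterion at the 95% level, where chance gives about 1 group in 20. These were Fbxo32 in the dispersed 72 hr group, whose highest array was at 9.27, the other Trim63 probe in the dispersed 48 hr group, whose highest array was at 4.97, Foxo3 in the dispersed 72 hr group, whose lowest array was at 7.73, and Ctsl in the dispersed 48 hr group, whose highest array was at 16.50.

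Of 204 pathway genes tested, 10 changed differently between 48 and 72 hr in the 2 cultures by limma's interaction term, given as the dispersed minus the myofiber-associated change. That term was called for 3.45% of all genes tested. Fbxo32 differed by 2.41, with 1.35 in dispersed and -1.06 in myofiber-associated myoblasts. Myog, the myogenin gene, differed by 4.55 (3.92 and -0.64), Fam134b by 1.97 (0.79 and -1.18) and Musk, the kinase of the neuromuscular junction, by 1.31 (0.61 and -0.70). Ube2e1 differed by 0.56, Rheb, the activator of mTORC1, by 0.54 and Psmd14 by 0.44. Chrna1, a subunit of the acetylcholine receptor, differed by -0.88 (0.49 and 1.37), Skp2 by -0.87 (0.31 and 1.18) and Lipa by -0.82 (-0.96 and -0.14).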

How the results depend on the processing

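Of 398 member results under alternatives, 358 kept direction and side of the threshold, 12 lost a call, 16 gained one and 12 reversed. With arrays left out, 384 of 432 kept both, 35 lost a call, 7 gained one and 6 reversed. The lost calls are named beside the results. The reversals lay near 0 or between probes. In dispersed myoblasts the change of Foxo1 was 0.02 under scaling to the 75th percentile, 0.09 as the mean of all probes and 0.21 by the other probe (-0.10 to 0.05 with 1 array left out), that of Foxo3 was 0.04 as the mean of all probes, and that of Ctsl was 0.00 under scaling to the 75th percentile and 0.01 in the deposited table. In myofiber-associated myoblasts Fbxo30 was at 0.12 as the mean of all probes and 0.24 by the other probe (-0.07 to 0.06 with 1 array left out). Between cultures Foxo3 was at 0.02 at 48 hr and Fbxo30 at 0.01 at 72 hr as the mean of all probes, and at 72 hr the other probes gave 0.30 for Fbxo30 and -0.12 for Foxo1. The cause was not tested.

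The count of genes called in dispersed myoblasts over time, 2784, was 999 in 1 fit of all arrays (1679 to 2507 with 1 array left out). That in myofiber-associated myoblasts, 1113, was 468 with no filter, 571 with the slide row as a block, 5780 in 1 fit of all arrays and 3787 in the deposited table (232 to 1991). The interaction count, 701, was 409 with no filter and 3823 in the deposited table (295 to 2368), where 43% rather than 31.5% of the calls were higher. The deposited table leaves out the spread of the 48 hr arrays. Between cultures the counts were 6374 to 11144 at 48 hr and 3315 to 5627 at 72 hr with 1 array left out. No paired analysis was possible because the numbers in the labels differ between the times of a culture and pair no preparations.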

Other observations

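Of the genes known to rise in denervated muscle 11 were tested. In dispersed myoblasts 5 were higher and 1 lower at 72 hr (median 0.38), where 13.7% of all genes tested were called, with Myog at 3.92, Chrng, the fetal subunit of the acetylcholine receptor, at 0.90, Musk at 0.61 and Chrna1 at 0.49. In myofiber-associated myoblasts 2 were called, Chrng (1.78) and Chrna1 (1.37), both higher, where 5.48% of all genes tested were called. Between cultures at 48 hr 5 were higher and 2 lower in the myofiber-associated group, with Myog at 8.25, Musk at 3.41 and Runx1 at 2.28, and Chrng at -0.85.

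Of 20 kinase pathway genes upstream of FoxO and autophagy, 5 were higher in the myofiber-associated group at 48 hr, with Prkaa2, the AMPK subunit typical of muscle, at 4.32 and Akt2 at 1.28. At 72 hr Sgk1 (0.77) and Akt2 (0.67) were higher and Akt1 (-0.30) was lower. In dispersed myoblasts Ppargc1a (0.80) and Prkaa1 (0.25) rose between the times and Sgk1 (-0.68) and Pik3r1 (-0.41) fell, and in myofiber-associated myoblasts Rheb fell by 0.51. Adult fiber markers differed between cultures over the same arrays, and their part in these values was not tested.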
